A study of Homo sapiens with 29 samples.

Results

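Open chromatin around SF3B1 and PHF5A, the genes of the SF3b subunits that the splicing inhibitor pladienolide B binds, was described in 29 ATAC-seq libraries of 22Rv1 cells, an established human prostate cancer line. ATAC-seq uses a transposase that cuts accessible DNA, and the cut fragments are sequenced. The members were taken by position, and the choice was made with earlier results of these data known. Every peak within 50 kb of SF3B1 (hg19 chr2:198256698-198299771) or PHF5A (hg19 chr22:41855721-41864729) was taken from all lists. Overlapping peaks were merged over libraries. This gave 23 regions of 166696 in the whole series, 14 in the SF3B1 window and 9 in the PHF5A window.

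SF3B1 and PHF5A are subunits of SF3b, the part of the U2 small nuclear ribonucleoprotein that recognises the intron's branch point before splicing. SF3B1 is the large scaffold subunit, and PHF5A is a small zinc-finger protein held against it. Pladienolide B (PladB) sits in a pocket formed by both proteins and blocks branch point recognition, and substitutions of PHF5A residue Y36 in that pocket are known for resistance to this class of inhibitor. FOXA1, the transgene of the engineered lines, is a pioneer transcription factor of prostate luminal cells.

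Parental 22Rv1 cells gave 15 libraries, 3 for each of DMSO (0.1%), the stereoprobe WX-02-23 (20 µM), the stereoprobe WX-02-43 (20 µM), PladB at 10 nM and PladB at 100 nM. Engineered 22Rv1 cells gave 14 libraries, 2 for each group, and every engineered group, controls included, stably expressed Y36C-PHF5A. One engineered line carried doxycycline (Dox)-inducible WT-FOXA1 and was profiled with DMSO without Dox, and with Dox under DMSO (0.1%), WX-02-23 (20 µM) or PladB (100 nM). The other carried Dox-inducible C258A-FOXA1 and was profiled with Dox under the same 3 treatments. Treatment lasted 3 h in every group. Whether the engineered lines were single clones, how the Y36C-PHF5A construct was delivered and built, and the dose and duration of Dox are not stated in the labels. The labels do not say whether replicates came from separate cultures, so spreads and p-values measure the variation between these libraries, which may be technical.

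The deposited lists held 62832 to 98193 peaks. Sequencing depth was not given. A low percentile of the local backgrounds solved from each list's peaks, 0.5465 to 1.502 reads per base, served as a relative depth. The shortest lists were those of the WT-FOXA1 line with WX-02-23, at 62832 and 67815 peaks, and without Dox, at 67195 and 69814 peaks. Lists of the 15 parental libraries and of the 14 engineered libraries came from separate processing folders. Whether these were also separate library batches is not known, so cell line and folder cannot be told apart in any comparison of parental with engineered cells. Promoters of prostate luminal marker genes and of the other SF3b and SF3a subunits were not analysed here, since no hg19 annotation was used here.

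The promoter sequence is shown for SF3B1 because its promoter peak is one of the tallest features of the locus. The peak was called in hg19 and positions were not converted between builds, so its overlap with these bases was not checked. The RefSeq table (GRCh38.p14) held SF3B1, in 2 entries, and not PHF5A, so 1 of 2 members matched. The entry with the outermost start was used, and its start may differ from the hg19 gene start used for the peaks. The run below covers the 250 bases before the SF3B1 start (GRCh38.p14 chr2:197435094-197435343, minus strand, 5′ to 3′), with the single match to the E-box CACGTG in capitals.
SF3B1 promoter: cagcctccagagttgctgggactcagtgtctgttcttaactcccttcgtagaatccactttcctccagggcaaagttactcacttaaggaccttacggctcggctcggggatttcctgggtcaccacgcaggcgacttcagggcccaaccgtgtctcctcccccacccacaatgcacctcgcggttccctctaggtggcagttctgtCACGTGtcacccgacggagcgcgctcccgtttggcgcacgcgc
Its GC content was 60.4%, where the median over all promoters of the table was 58%. The E-box lay 43 bases before the start, and 6.34% of 35116 promoter windows of the same length held that motif on either strand. The window held no match on either strand to an ETS site (CCGGAAGT, found in 3.42% of promoter windows), a forkhead site (TGTTTAC, 2.98%), a TATA box (TATAAA, 10.7%) or a GC box (GGGCGG, 42.6%). A match is a string of letters and was not tested for binding of any factor.

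Both promoters were open in every library. The SF3B1 promoter region (hg19 chr2:198299242-198300420) covered 649 bp upstream and 529 bp downstream of the annotated gene start. The PHF5A promoter region (hg19 chr22:41864369-41865676) covered 947 bp upstream and 360 bp downstream. In RefSeq the next protein-coding gene upstream of SF3B1 is COQ10B, which makes a coenzyme Q-binding mitochondrial protein. Regions were not assigned to any neighbouring gene.

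The height of a peak is given here as the number of reads piled up at its summit, which was recovered exactly from the deposited fold and p-value of the peak. At the SF3B1 promoter the parental libraries held 71, 76 and 80 summit reads under DMSO and 87, 64 and 70 under WX-02-23. The counts were 79, 77 and 73 under WX-02-43, 77, 64 and 70 under 10 nM PladB, and 72, 64 and 45 under 100 nM PladB. The treated groups overlapped with DMSO throughout, and the lowest count stood in 1 of the 3 libraries with 100 nM PladB. In the WT-FOXA1 line the counts were 78 and 78 without Dox, 72 and 88 with Dox and DMSO, 63 and 71 with WX-02-23, and 65 and 74 with PladB. In C258A-FOXA1 cells they were 86 and 73 with DMSO, 62 and 76 with WX-02-23, and 60 and 64 with PladB. The C258A-FOXA1 libraries with PladB lay below both DMSO libraries of that line in raw reads, and those libraries also had the lowest backgrounds of the series, 0.5465 and 0.5871 reads per base.

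The fold enrichment that the authors deposited for the SF3B1 promoter peak is each list's own value and was not tested between lists. It was 13.2, 13.3 and 15.1 under DMSO, 13.7, 10.5 and 11.8 under WX-02-23, and 13.9, 12.5 and 12.1 under WX-02-43 in parental cells. Under PladB it was 13.4, 11.1 and 12.3 at 10 nM and 14.2, 12.9 and 11.0 at 100 nM. In the engineered libraries it ran from 14.5 to 18.3, with a median of 15.9. In every list the SF3B1 promoter stood high, above 78.4% to 96% of the list's peaks by fold in parental libraries and above 93.4% to 99.1% in engineered libraries. Its summit lay 101 to 186 bp upstream of the gene start, with a median of 129 bp, inside the bases printed above if the start is the same in both builds.

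At the PHF5A promoter the deposited fold was nearly level across the series, from 11.7 to 14.6 in parental libraries and from 11.6 to 14.1 in engineered libraries. The summit reads under DMSO, WX-02-23 and WX-02-43 in parental cells were 85, 80 and 83, then 94, 93 and 97, then 87, 94 and 83. With PladB they were 94, 83 and 88 at 10 nM and 76, 75 and 74 at 100 nM. The WT-FOXA1 line held 93 and 89 reads without Dox, 88 and 93 with Dox and DMSO, 73 and 80 with WX-02-23, and 88 and 90 with PladB. The C258A-FOXA1 line held 91 and 92 with DMSO, 82 and 92 with WX-02-23, and 74 and 74 with PladB. The PHF5A promoter therefore ranged from 73 to 97 reads over the 29 libraries, where the SF3B1 promoter ranged from 45 to 88.

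The PHF5A promoter peak had its summit at one of 2 places. It lay 12 to 26 bp upstream of the gene start in 7 of 15 parental and 2 of 14 engineered libraries, and 347 to 368 bp upstream in 8 of 15 parental and 12 of 14 engineered libraries. Every parental group held libraries of both kinds, with 2 of 3 DMSO and 2 of 3 WX-02-23 libraries at the near place and 1 of 3 in each of the other groups. Both places were therefore used within single treatment groups.

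**Figure D1:**
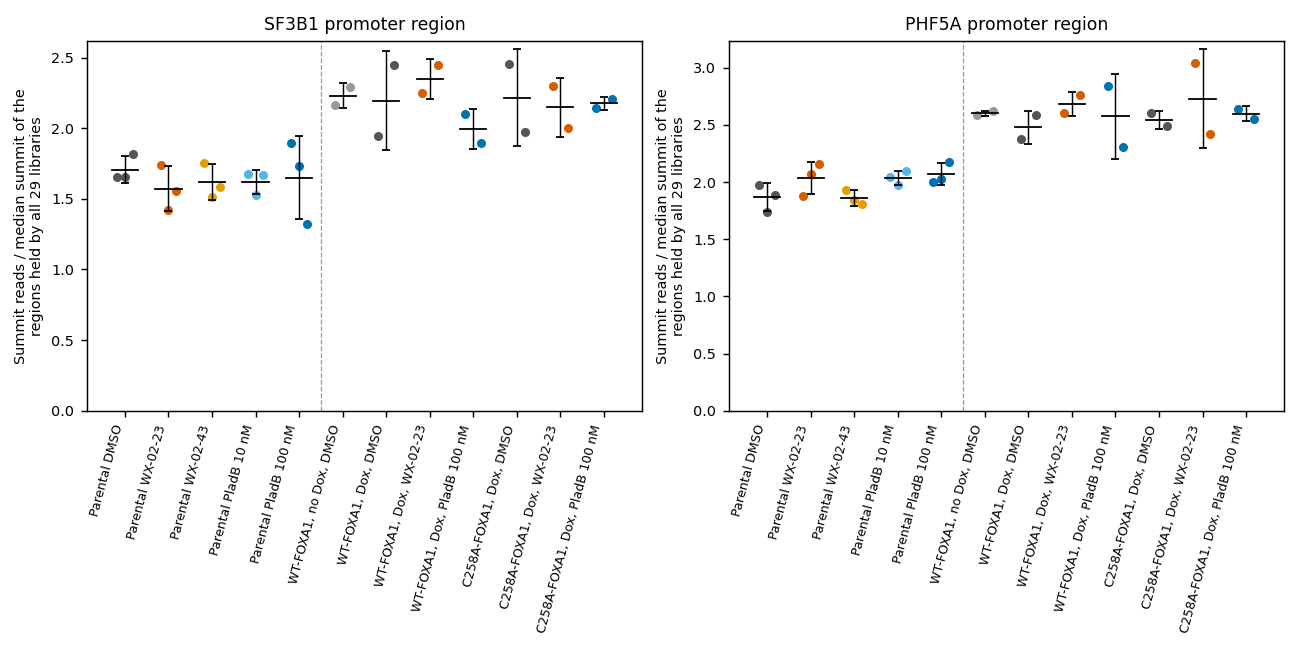
Relative summit height at the SF3B1 promoter (left) and the PHF5A promoter (right), one point per library, with the mean (horizontal line) and SD (bars) of each group. The vertical axis is the number of summit reads divided by the library's median over the 35901 regions held by all 29 libraries, and the dashed line separates parental from engineered libraries. At the SF3B1 promoter parental libraries reached 1.32 to 1.90 and engineered libraries 1.90 to 2.46, and at the PHF5A promoter 1.74 to 2.18 and 2.31 to 3.04.

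To set libraries of different depth side by side, summit reads were divided by the library's own median over the 35901 regions that all 29 libraries held. On this relative scale the SF3B1 promoter stood at 1.32 to 1.90 in parental libraries and at 1.90 to 2.46 in engineered libraries, and the PHF5A promoter at 1.74 to 2.18 and at 2.31 to 3.04. The plot of promoter heights shows this step between the cell lines at both genes. Of the 7 member regions held by all libraries, 4 were higher in every engineered than in any parental library, both promoters among them, where 11.3% of the 35901 common regions met the same rule. None was lower in every engineered library, where 2.61% of common regions were. At the SF3B1 promoter the gap was narrow, since the highest parental library, with 100 nM PladB, had 1.895 and the lowest engineered library, with PladB, had 1.897. In raw reads both promoters overlapped between parental and engineered libraries, so the step depends on the scaling. Cell line and processing folder cannot be told apart here.

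Within the parental cells the relative height of the SF3B1 promoter overlapped between DMSO and every treatment. Its mean was 1.71 ± 0.0961 (SD, n = 3) under DMSO and 1.57 ± 0.160 under WX-02-23, for an exact permutation p of 0.3 (two-sided). Under 100 nM PladB it was 1.65 ± 0.294, a wider spread that came from 1 library at 1.324 beside 1.73 and 1.895. On the relative scale the PHF5A promoter was higher under 100 nM PladB, with 2.00, 2.03 and 2.18 against 1.98, 1.74 and 1.89 under DMSO. The groups did not overlap and the ratio of means was 1.11. In raw reads it was lower without overlap, at 76, 75 and 74 against 85, 80 and 83, so the sign turns with the scaling. By the relative scale 16.3% of common regions were higher without overlap in this comparison. Its exact permutation p was 0.1, the smallest that 3 against 3 libraries allow, and its Benjamini-Hochberg value over the 35901 common regions was 0.405. Under WX-02-23 the PHF5A promoter was higher than under DMSO without overlap in raw reads. On the relative scale these groups overlapped, at 2.03 ± 0.141 against 1.87 ± 0.120 (exact permutation p = 0.3). The share of regions separated in raw reads was not counted.

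The width of the promoter peak did not separate any treated parental group from DMSO either. The SF3B1 promoter peak spanned 879 ± 136 bp under DMSO (SD, n = 3) and 928 ± 33.3 bp under WX-02-23, for an exact permutation p of 0.8 (two-sided). The PHF5A promoter peak spanned 1264 ± 26.5 bp under DMSO and 1165 ± 113 bp under 100 nM PladB, with an exact permutation p of 0.2. Over the 12 width comparisons the smallest adjusted p was 0.982.

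A region inside PHF5A was held by engineered libraries alone. It lay at hg19 chr22:41863405-41863669, between 1060 and 1324 bp into the gene, and 12 of 14 engineered and 0 of 15 parental libraries had a peak there. All 8 libraries of the WT-FOXA1 line held it. The summit reads were 43 and 41 without Dox, 48 and 41 with Dox and DMSO, 38 and 44 with WX-02-23, and 43 and 44 with PladB, so in raw reads the libraries with and without Dox overlapped, as did the treatments. In the C258A-FOXA1 line both DMSO libraries held it with 34 and 36 reads, 1 of 2 WX-02-23 libraries with 36 reads, and 1 of 2 PladB libraries with 26 reads. All 4 of these counts lay below the lowest count of the WT-FOXA1 line, 38 reads. Divided by the library's median over the 35901 common regions, the summits of the WT-FOXA1 line stood at 1.19 and 1.21 without Dox, 1.30 and 1.14 with Dox and DMSO, 1.36 and 1.52 with WX-02-23, and 1.39 and 1.13 with PladB. On this scale both WX-02-23 libraries lay above both Dox and DMSO libraries, and the other groups overlapped with Dox and DMSO. The C258A-FOXA1 line stood at 0.971 and 0.973 with DMSO, 0.947 with WX-02-23 and 0.897 with PladB, again below every library of the other line. Only the 4 C258A-FOXA1 libraries with a peak enter this contrast, and its share over all regions was not counted. This region is not one of the common regions. Of those, 28.3% were higher without overlap with WX-02-23 in the WT-FOXA1 line. With Dox and DMSO, 19.5% were lower without overlap in C258A-FOXA1 than in WT-FOXA1 cells.

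The peak in PHF5A was narrow and had nearly the same position in each library. It spanned 221 to 262 bp, its summit lay 1175 to 1214 bp into the gene with a median of 1191 bp, and its deposited fold ran from 5.74 to 6.92 with WT-FOXA1 and from 4.45 to 5.20 with C258A-FOXA1. Its summit reached 44.1% to 55% of the same library's promoter summit with WT-FOXA1 and 35.1% to 39.1% with C258A-FOXA1. The local background of the peak was 98.5% to 101% of that of the promoter peak 699 bp away.

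The absence of the peak in the other libraries was read against what each library could detect. With the local background of its own promoter peak, a parental library needed 14 to 18 summit reads for a peak at the deposited threshold, and none of the 15 had one. The parental summit therefore stayed under 14 to 18 reads, where the engineered peaks held 26 to 48. The WX-02-23 and PladB libraries of the C258A-FOXA1 line without a peak, replicate 1 of each, each needed 15 reads. The plot of this region by library shows the called summits and these limits. A region without a peak may still be accessible below the limit.

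**Figure D2:**
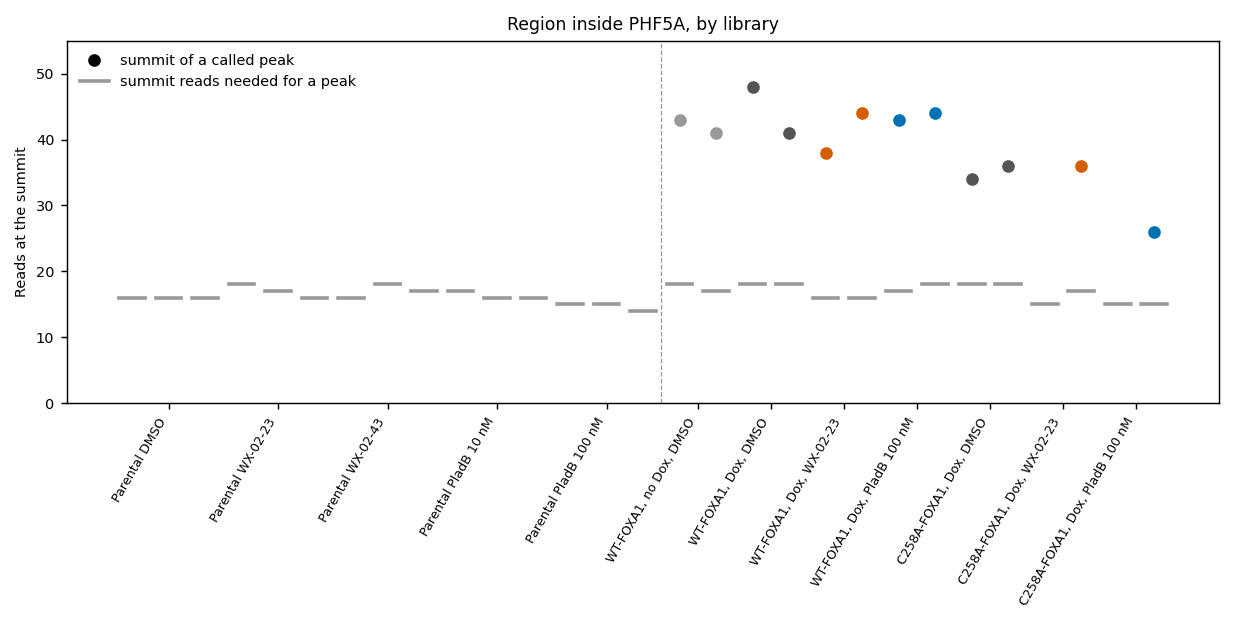
Summit reads of the peak inside PHF5A in each library (points) and the number of summit reads that library needed for a peak at the deposited threshold (grey bars). Libraries are grouped by treatment along the horizontal axis, in replicate order, and the dashed line separates parental from engineered libraries. The 12 called summits hold 26 to 48 reads, and the limits of the 15 parental libraries without a peak lie at 14 to 18 reads.

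Regions held by engineered libraries alone were not rare in these lists. Of all 166696 regions, 18.5% were held by engineered libraries and no parental library, and 4 of the 23 members were. Regions held by at least 12 engineered and no parental library numbered 2682, or 1.61% of all, and the peak inside PHF5A was 1 of them. The pattern over the 29 libraries was the same in 1 other region of the genome. The remaining 7684 bp between this region and the end of PHF5A held no peak in any library. All engineered cells carried a PHF5A construct, so reads from it can align to the exons of the endogenous gene. Exon positions in hg19 were not used here, and RefSeq lists 7 pseudogenes of PHF5A that can share its reads. Accessible chromatin of the endogenous gene, reads from the Y36C-PHF5A construct and the separate processing folder cannot be told apart here.

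SF3B1, which no construct carried, had 1 region inside the gene apart from its promoter. It lay 5.4 kb into the gene (hg19 chr2:198293987-198294346) and was held by 13 of 15 parental and 11 of 14 engineered libraries, with 8 to 17 summit reads. Both C258A-FOXA1 libraries with DMSO held it, with 11 and 9 reads, and neither with WX-02-23 did, so it counted as lost in that comparison. With PladB that line held it at 8 and 8 reads. In parental cells all 3 DMSO libraries held it with 12, 15 and 17 reads and all 3 WX-02-23 libraries with 16, 9 and 12. The other 37289 bp of the gene, to its end, held no peak in any library.

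**Figure D3:**
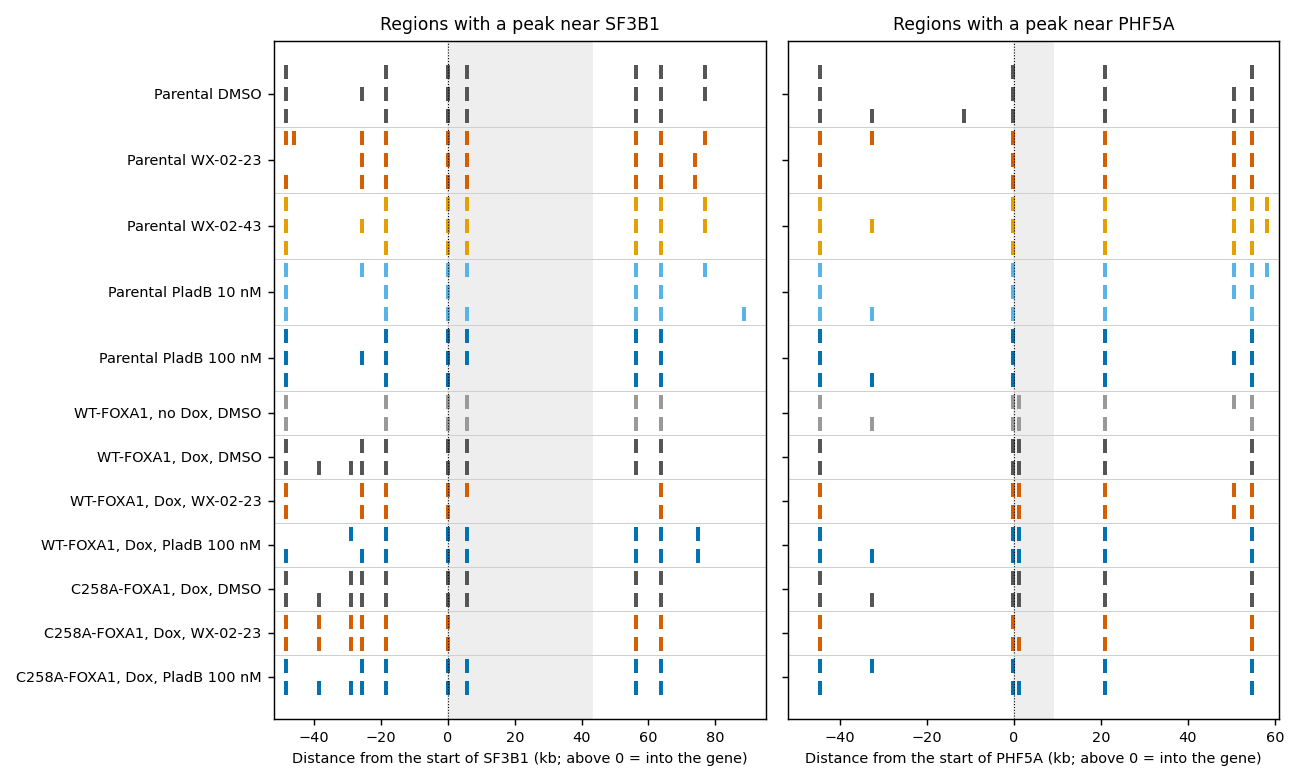
Regions with a peak near SF3B1 (left) and PHF5A (right), one row per library in replicate order within each group. The horizontal axis is the distance from the gene start in kb, with positive values into the gene and beyond its end, a dotted line at the start and grey shading over the gene. The columns present in every row are the 3 and 4 regions held by all 29 libraries, and the column just inside PHF5A appears in 12 of the 14 engineered rows and in no parental row.

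The number of regions per library gave a first comparison of treatments. Near SF3B1 the parental libraries held 7, 8 and 6 regions under DMSO, 9, 7 and 8 under WX-02-23, and 7, 8 and 6 under WX-02-43. With PladB they held 8, 5 and 7 at 10 nM and 6, 7 and 5 at 100 nM. Near PHF5A they held 4, 5 and 7 under DMSO, 6, 5 and 5 under WX-02-23, and 6, 7 and 5 under WX-02-43, and 6, 5 and 5 and then 4, 5 and 5 at the lower and higher PladB dose. Groups overlapped in all 12 parental comparisons, with exact two-sided permutation p-values of 0.5 to 1 and adjusted values of 1 throughout. With 50% of the region covered, WX-02-23 minus DMSO near SF3B1 went from 1 to 2.33 regions, with an exact permutation p of 0.1, the smallest possible, before adjustment. With windows of 25 kb it was 0.

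The 2 stereoprobes were compared at the same dose and time, at both genes, in 2 comparisons that belong to those 12. WX-02-23 minus WX-02-43 was 1 region near SF3B1, with pairwise differences between libraries of -1 to 3 (exact permutation p = 0.5). It became 2.33 with 50% of the region covered (exact permutation p = 0.3) and 0 with windows of 25 kb. Near PHF5A it was -0.667 regions, with pairwise differences of -2 to 1 (exact permutation p = 0.7). Neither difference exceeded the spread between libraries, and these intervals do not show that the compounds act alike. The parental PladB doses differed by -0.667 regions at each gene, 100 nM minus 10 nM, with exact permutation p-values of 0.8 and 0.6.

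**Figure D4:**
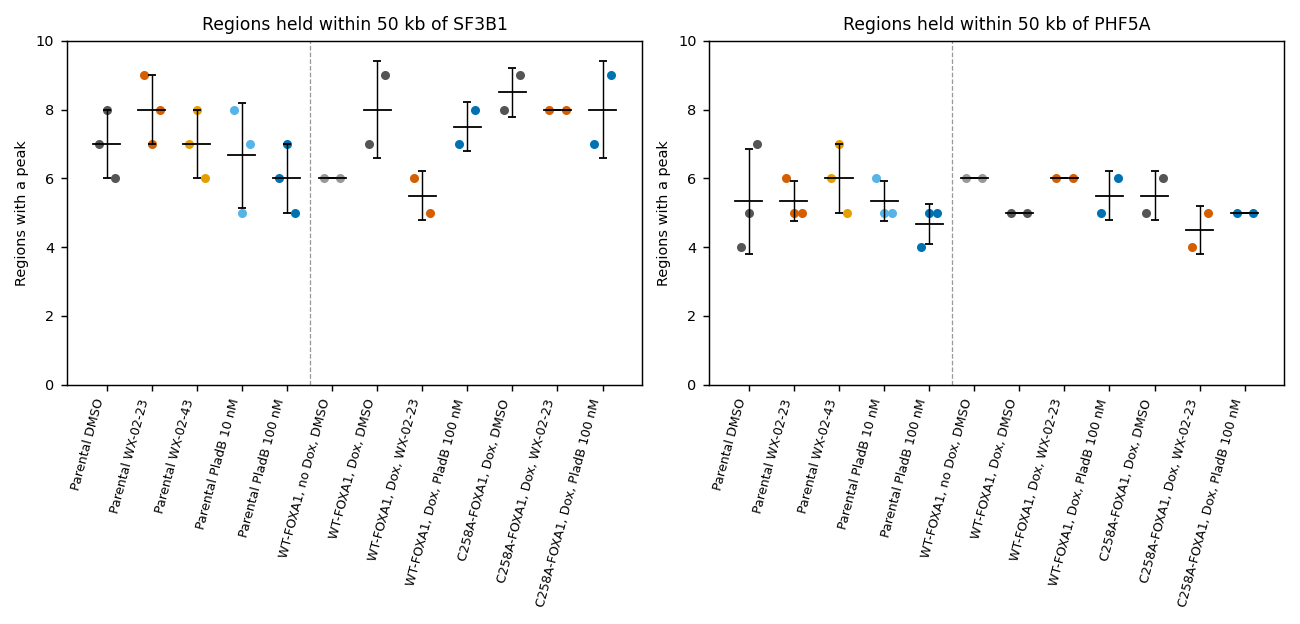
Number of member regions with a peak in each library, near SF3B1 (left) and near PHF5A (right), one point per library, with the mean (horizontal line) and SD (bars) of each group. The dashed line separates parental from engineered libraries. Parental libraries hold 5 to 9 regions near SF3B1 and 4 to 7 near PHF5A, with overlap between all compared parental groups.

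In the engineered lines, a permutation test of 2 against 2 libraries cannot pass a threshold, so none was run within a line and the values are given side by side. Near SF3B1 the WT-FOXA1 line held 6 and 6 regions without Dox, 7 and 9 with Dox and DMSO, 6 and 5 with WX-02-23, and 7 and 8 with PladB. The C258A-FOXA1 line held 8 and 9, 8 and 8, and 7 and 9 under DMSO, WX-02-23 and PladB. The WT-FOXA1 line with WX-02-23 and the same line without Dox thus had fewer regions than with Dox and DMSO, and they had the shortest lists of the series. With lists of equal length the WX-02-23 difference turned from -2.5 to 0.5 regions, and the Dox difference went from 2 to 0.5. Near PHF5A the WT-FOXA1 line held 6 and 6 without Dox, 5 and 5 with DMSO, 6 and 6 with WX-02-23, and 5 and 6 with PladB, and the C258A-FOXA1 line 5 and 6, 4 and 5, and 5 and 5 under DMSO, WX-02-23 and PladB.

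Whether the 2 engineered lines responded differently was tested on the number of regions, with line labels exchanged within treatment in 36 arrangements. The WX-02-23 effect in the WT-FOXA1 line minus that in the C258A-FOXA1 line was -2 regions near SF3B1 (exact permutation p = 0.389) and 2 near PHF5A (exact permutation p = 0.167). For PladB the difference was 0 near SF3B1 and 1 near PHF5A, with exact permutation p-values of 1 and 0.5. The smallest p this design allows is 0.0556.

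No member was gained or lost in any parental comparison. A region counted as gained when every treated and no control library held a peak, and as lost in the reverse case. For WX-02-23 against DMSO, 1.82% of all regions tested were gained and 1.18% lost, so 0 of 17 tested members is near this background. For WX-02-43 against DMSO the shares were 0.34% gained and 0.369% lost, and for WX-02-23 against WX-02-43 they were 1.6% and 1.07%. For PladB against DMSO they were 0.408% and 0.556% at 10 nM and 0.187% and 1.68% at 100 nM, and for the higher against the lower dose 0.121% and 1%. The comparisons with DMSO share their control libraries.

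In the engineered lines 3 members were gained and 2 lost, and where they had a peak in the compared groups it held 9 to 18 summit reads. With WX-02-23 in the WT-FOXA1 line, where 1.31% of all regions tested were gained and 11.7% lost, 1 member was gained and 1 lost. The gained one lay 41.4 kb beyond the end of PHF5A (hg19 chr22:41814006-41814309), with 17 and 17 summit reads under WX-02-23 and no peak under DMSO with Dox. It was not specific to that treatment, since 11 of 15 parental libraries and 1 of 2 WT-FOXA1 libraries without Dox held it. At a q-value of 1e-05 or below neither WX-02-23 library kept it.

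The lost one lay 13.0 kb beyond the end of SF3B1 (hg19 chr2:198243171-198243693). The 2 WT-FOXA1 libraries with WX-02-23 were the only ones of the 29 without it, and the other 27 held it with 8 to 19 reads. Under DMSO with Dox the same line had 11 and 13 reads. With lists of equal length 1 of 2 DMSO libraries kept it, which ended the call. The same pattern over the 29 libraries was found in 713 other regions of the genome.

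With PladB in the WT-FOXA1 line, where 0.915% of all regions tested were gained and 3.05% lost, 1 member was gained and none lost. It lay 31.7 kb beyond the end of SF3B1 (hg19 chr2:198224774-198224958), where both libraries of this group had 9 summit reads and no other library of the series had a peak. With lists of equal length 1 of these 2 libraries kept it. Another 53 regions of the genome had this pattern.

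With WX-02-23 in the C258A-FOXA1 line 2.37% of all regions tested were gained and 2.55% lost, and 1 member, the region inside SF3B1 described above, was lost. With lists of equal length 1 of the 2 DMSO libraries kept that region. With PladB in that line no member was gained or lost, where 0.806% and 4.67% of all regions were. No member changed between the C258A-FOXA1 and WT-FOXA1 lines with Dox and DMSO, where 3.7% and 3.82% did.

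Dox in the WT-FOXA1 line gained 1 member and lost none, where 13.2% of all regions tested were gained and 1.1% lost. This region lay 25.4 kb upstream of SF3B1 (hg19 chr2:198325180-198325727). It had no peak in either library without Dox, 10 and 18 reads with Dox and DMSO, 18 and 21 with WX-02-23, and 13 reads in 1 of 2 libraries with PladB. In the C258A-FOXA1 line, profiled with Dox throughout, all 6 libraries held it, with 17 and 14, 10 and 18, and 8 and 9 reads under DMSO, WX-02-23 and PladB. Parental cells held it in 7 of 15 libraries, all 3 with WX-02-23 (12, 10 and 9 reads) and 1 of 3 in every other group. With lists of equal length 1 of the 2 WT-FOXA1 libraries with Dox and DMSO kept it.

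Further upstream of SF3B1, 2 more regions were held by engineered libraries and no parental library. The first lay 28.9 kb upstream (hg19 chr2:198328630-198328950) and was held by 7 engineered libraries with 9 to 13 reads. These were 1 of 2 under Dox and DMSO and 1 of 2 under PladB with WT-FOXA1, and with C258A-FOXA1 both DMSO, both WX-02-23 and 1 of 2 PladB libraries. The second lay 38.3 kb upstream (hg19 chr2:198338071-198338393) and was held by 5 engineered libraries with 7 to 16 reads, 1 with WT-FOXA1 and 4 with C258A-FOXA1. The C258A-FOXA1 line thus held these regions in 5 and 4 of its 6 libraries, against 2 and 1 of the 8 of the WT-FOXA1 line. Those 8 include the libraries without Dox and with WX-02-23, the shortest lists of the series, which held neither region. With Dox and DMSO, 2 of 2 C258A-FOXA1 and 1 of 2 WT-FOXA1 libraries held the first region, and 1 of 2 in each line held the second. The difference between the lines was not tested, and its share over all regions was not counted.

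Held by parental libraries alone were 6 members, against 25.2% of all regions, and each had low summits or few libraries. Near SF3B1 the region 33.5 kb beyond the gene end (hg19 chr2:198222776-198223171) was held by 6 parental libraries with 9 to 12 reads, spread over 4 of the 5 groups. The region 30.8 kb beyond the end (hg19 chr2:198225743-198225937) was held by 2 of 3 WX-02-23 libraries with 10 and 10 reads and by no other library. Near PHF5A the region 49.0 kb beyond the end (hg19 chr22:41806423-41806690) was held by 2 of 3 WX-02-43 libraries with 22 and 27 reads and by 1 of 3 libraries with 10 nM PladB with 24. The other 3 were each held by a single library, at hg19 chr2:198211035-198211196, chr2:198345798-198345947 and chr22:41876030-41876179, with 8, 9 and 7 reads.

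Of the regions not held by all 29 libraries, the last 2 were held in both kinds of cells. The region 48.1 kb upstream of SF3B1 (hg19 chr2:198347823-198348418) was held by 27 libraries with 9 to 20 reads. The region 32.6 kb upstream of PHF5A (hg19 chr22:41897281-41897565) was held by 9 libraries with 8 to 16 reads, 1 of 3 in each parental group and 4 of 14 engineered libraries.

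Beside the promoters of SF3B1 and PHF5A, 5 members were held by all 29 libraries, and 2 of them were taller than either of these promoters. The first lay 10.9 kb beyond the end of PHF5A (hg19 chr22:41842666-41844829), with 110 to 136 summit reads in parental and 114 to 147 in engineered libraries, the highest single count of the members. It stood above 98.5% to 99.9% of the 35901 common regions by height. The region 17.8 kb upstream of SF3B1 (hg19 chr2:198317601-198318831) had 104 to 137 and 107 to 141 reads. The others were the regions 44.0 kb upstream of PHF5A (hg19 chr22:41908735-41909608, 42 to 80 reads), 45.0 kb beyond its end (hg19 chr22:41809355-41810764, 31 to 61 reads) and 20.2 kb beyond the end of SF3B1 (hg19 chr2:198235678-198236512, 10 to 29 reads). In all, 7 of 23 members were held by all 29 libraries, where 21.5% of all regions were. Whether any of the 5 regions beside the SF3B1 and PHF5A promoters is the promoter of a neighbouring gene was not examined.

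The relative height of the region 44.0 kb upstream of PHF5A was lower under WX-02-23 in parental cells. It was 1.58, 1.61 and 1.48 under DMSO, 1.32, 1.42 and 1.2 under WX-02-23, and 1.49, 1.57 and 1.56 under WX-02-43. All 3 WX-02-23 libraries lay below all DMSO and all WX-02-43 libraries, with ratios of means of 0.845 and 0.853. In raw reads WX-02-23 (66, 64 and 54) overlapped with DMSO (68, 74 and 65) and not with WX-02-43 (67, 80 and 72). The exact permutation p was 0.1 in both comparisons, the smallest possible, and the values adjusted over all common regions were 0.399 and 0.460. For WX-02-23 against DMSO, 14.9% of the common regions were higher and 10.2% lower without overlap, so 1 of 7 members lower and 0 higher is near this background. For WX-02-23 against WX-02-43, 11.5% were higher and 10.2% lower, and again 1 of 7 members was lower and 0 were higher.

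The same region moved the other way in the WT-FOXA1 line on the relative scale. There it had 1.35 and 1.64 with Dox and DMSO, 2.04 and 1.66 with WX-02-23, and 1.90 and 1.69 with PladB, so both treated groups lay above DMSO, by ratios of 1.23 and 1.2. In raw reads the groups overlapped, with 50 and 59 under DMSO, 57 and 48 with WX-02-23, and 59 and 66 with PladB. Without Dox that line had 1.69 and 1.59, which overlap with the WX-02-23 and PladB libraries. The C258A-FOXA1 line had 1.66 and 1.57 with DMSO, 1.78 and 1.45 with WX-02-23, and 1.82 and 1.45 with PladB, all overlapping. The difference between parental and WT-FOXA1 cells was not tested.

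The region 10.9 kb beyond the end of PHF5A was higher with PladB in parental cells on the relative scale. Its relative height was 2.60, 2.74 and 2.79 under DMSO, 2.87, 2.98 and 2.86 under 10 nM PladB, and 2.97, 3.11 and 3.23 under 100 nM PladB. The ratios of means to DMSO were 1.07 and 1.14, without overlap, each with an exact permutation p of 0.1 and with adjusted values of 0.641 and 0.405. In raw reads both doses overlapped with DMSO, at 112, 126 and 123 under DMSO, 132, 125 and 120 at 10 nM, and 113, 115 and 110 at 100 nM. For 10 nM PladB 9.4% of common regions were higher and 6.21% lower without overlap, against 1 of 7 members higher. For 100 nM PladB the shares were 16.3% and 8.38%, against 2 of 7 members higher, this region and the PHF5A promoter. Between the doses 9.67% were higher and 5.95% lower, and for WX-02-43 against DMSO 7.51% and 5.26%, against no member in either comparison.

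The largest differences of height lay at the region 20.2 kb beyond the end of SF3B1, in the C258A-FOXA1 line. Both DMSO libraries had 26 summit reads, against 10 and 19 with WX-02-23 and 10 and 11 with PladB. On the relative scale these were 0.743 and 0.703, then 0.370 and 0.50, then 0.357 and 0.379, with ratios of means of 0.602 and 0.509. The DMSO libraries of this line also stood above those of the WT-FOXA1 line, at 0.514 and 0.556, by a ratio of 1.35. WX-02-23 in WT-FOXA1 cells gave 0.464 and 0.483, a ratio of 0.886, and PladB there gave 0.484 and 0.564, overlapping with DMSO. Without Dox that line had 0.556 and 0.794, and parental libraries ran from 0.413 to 0.632 with no separation of any treatment from DMSO. Counts of 10 to 26 reads carry a large counting error, and no test was run with 2 libraries a group.

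**Figure D5:**
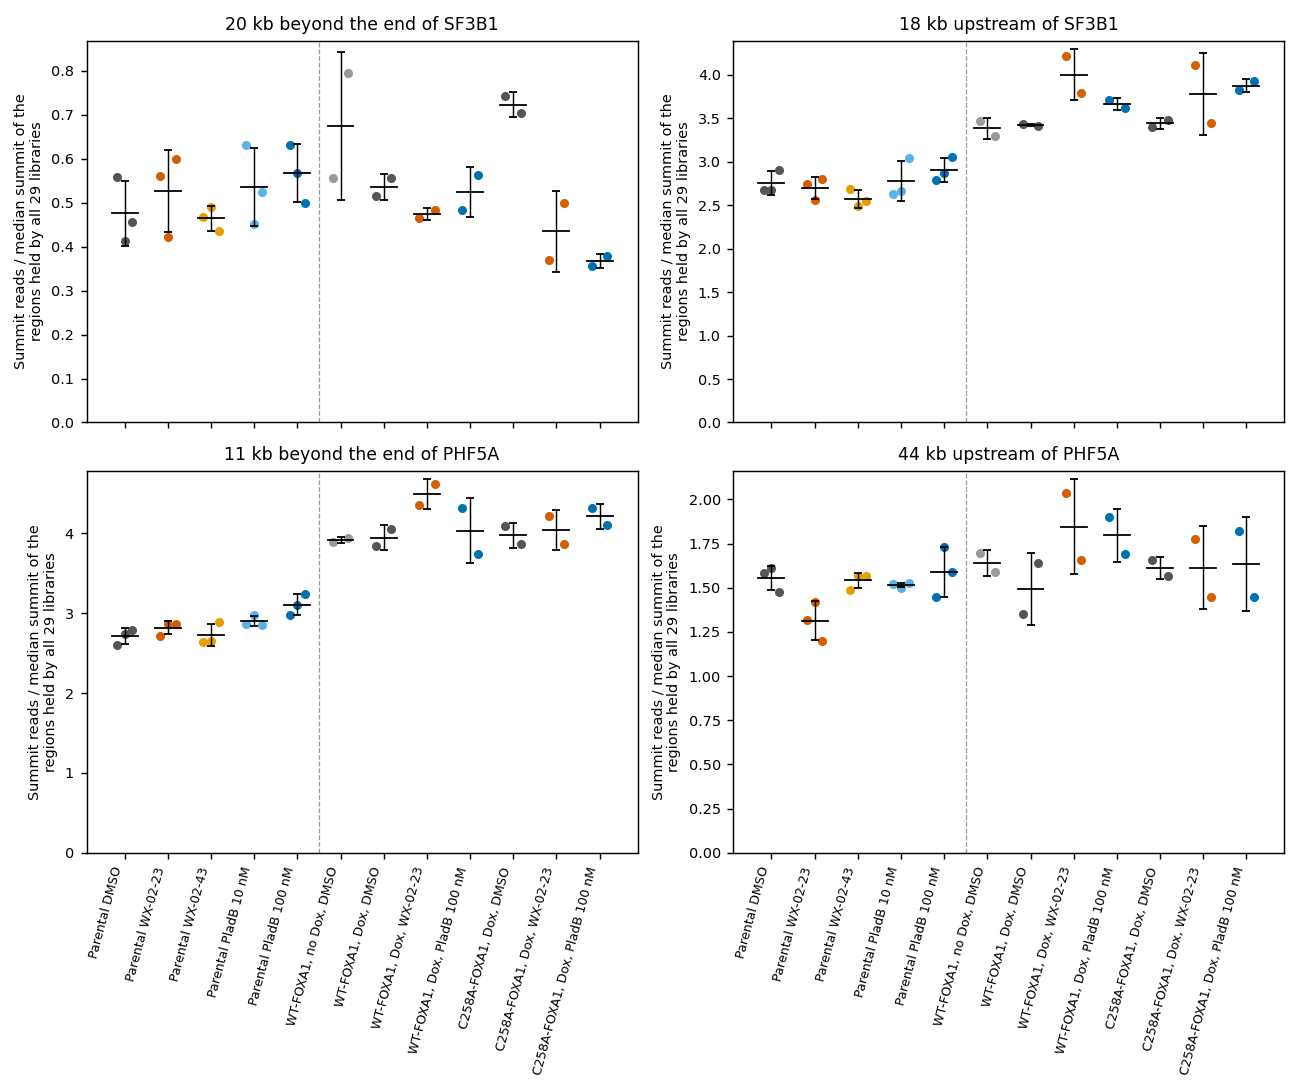
Relative summit height at 4 regions that all 29 libraries held, outside the promoter regions of SF3B1 and PHF5A. Points are libraries, with the mean (horizontal line) and SD (bars) of each group. Whether these regions are promoters of neighbouring genes was not examined. The vertical axes are summit reads divided by the library's median over the 35901 regions held by all libraries, and the dashed line separates parental from engineered libraries. The region 20 kb beyond SF3B1 falls from 0.743 and 0.703 in C258A-FOXA1 libraries with DMSO to 0.357 and 0.379 with PladB, and the region 44 kb upstream of PHF5A has its lowest group mean, 1.31, in the parental WX-02-23 libraries.

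The other separations of relative height in the engineered lines were small. With WX-02-23 in the WT-FOXA1 line, 28.3% of common regions were higher and 17% lower without overlap. Among the members, 4 were higher, the region 17.8 kb upstream of SF3B1 (ratio 1.17), the one 10.9 kb beyond PHF5A (1.14), the PHF5A promoter (1.08) and the region 44.0 kb upstream of PHF5A. In raw reads the first 3 of these were lower without overlap, so their sign turns with the scaling. Another 2 were lower, the region 45.0 kb beyond PHF5A (0.776) and the one 20.2 kb beyond SF3B1. With PladB in that line 18% were higher and 15% lower, against 2 members higher, the region 17.8 kb upstream of SF3B1 (1.07) and the one 44.0 kb upstream of PHF5A.

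In the C258A-FOXA1 line WX-02-23 left 20.1% of common regions higher and 17.7% lower without overlap, against 1 member, which was lower. PladB left 22.3% higher and 14.9% lower, against 2 members higher, the region 17.8 kb upstream of SF3B1 (1.13) and the one 10.9 kb beyond PHF5A (1.06), and 1 lower. In raw reads both of these were lower without overlap. For C258A-FOXA1 against WT-FOXA1 with DMSO the shares were 19% and 19.5%, against 1 member higher, and for Dox against no Dox 19% and 20.1%, against no member.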

How the data were processed

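The submitters' processing notes name Bowtie2, MACS2 and the build hg19, with no version or option that the sources used here give. Each of the 29 libraries had its own peak list. The authors deposited for each peak a score, a fold enrichment over local background (a ratio), and the p-value and q-value as −log10, with a q-value of at most 0.01. Groups and replicate numbers came from the labels.

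Summit reads and local background were solved from each peak's fold and p-value. This gave whole reads at 100% of peaks (tolerance 0.001), and 100% of 20000 simulated summits were recovered. Peaks were merged over all libraries, and a library held a region on at least 1 bp of overlap. Promoter regions overlapped 1 kb on each side of the gene start. Presence per library was compared by exact two-sided permutation tests, adjusted by Benjamini-Hochberg over 12 parental comparisons. With 3 against 3 libraries p cannot fall below 0.1, and groups of 2 were not tested. Relative height was added after the data were seen. It served as a description, with exact permutation p-values adjusted over all common regions.

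The rule for regions described singly named the promoters, regions inside the genes, regions gained or lost, and regions held by engineered or parental libraries alone. Alternatives changed the q-value, overlap, window, list length and libraries used. The members and lists were chosen with earlier results of these data known. No pair of libraries shared more than 7.64% of summit counts at common regions, so no list repeated another. The software was matplotlib 3.10.9, scipy 1.17.1 and pandas 2.3.3 under Python 3.11.15, with numpy 2.4.6.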

Additional observations from a re-analysis of the deposited data

Results flagged for a closer look

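The region 44.0 kb upstream of PHF5A differed in direction between cell lines. With WX-02-23 its relative summit height was 0.845 times that of DMSO in parental cells, where all 3 treated libraries lay below all 3 controls, and 1.234 times in the WT-FOXA1 line with Dox, where both treated libraries lay above both controls. In raw reads treated and control libraries overlapped in both lines. The difference between the lines was not tested, and the lines were in separate processing folders.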

How the results depend on the processing

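Of 312 alternative values of the number of regions, 18 reversed and 15 moved by at least the spread between libraries. The other 279 crossed no threshold or stayed within that spread, but 35 of them went to 0 and 62 kept their sign and differed over 1.5 times in size. The 279 include the replicate block values, which equal the main values by arithmetic. Tests of 3 against 3 libraries cannot go below 0.1, so no stability is read from parental p-values. The cause was not tested for any change. Near SF3B1 in parental cells WX-02-23 against DMSO went from 1 to 2.33 (50% of the region covered) and 0 (25 kb), WX-02-23 against WX-02-43 from 1 to 2.33 and 0 likewise, and 100 nM PladB from -1 to 0 (equal lists). With windows of 100 kb, WX-02-23 against DMSO near SF3B1 in parental cells went from 1 to -0.333, C258A-FOXA1 against WT-FOXA1 near SF3B1 from 0.5 to -0.5 (2 at a q-value of 1e-05 or below), and near PHF5A in the WT-FOXA1 line WX-02-23 went to 0.5 and PladB to 1.5. With windows of 25 kb the Dox difference was 0 at both genes, WX-02-43 against DMSO near PHF5A was -0.333, and WX-02-23 near PHF5A in the WT-FOXA1 line was 0. With 50% of the region covered, 10 nM PladB near SF3B1 gave 0.667, PladB in the WT-FOXA1 line 1.5, and WX-02-23 and PladB in the C258A-FOXA1 line both -2.5, and WX-02-23 near PHF5A in the WT-FOXA1 line -0.5. With summit windows of 100 bp, 10 nM PladB near SF3B1 gave 0.33, and near PHF5A WX-02-23 in the WT-FOXA1 line gave 0.5, PladB in the C258A-FOXA1 line 0.5 and Dox -1.5. At a q-value of 1e-05 or below, PladB near SF3B1 in the WT-FOXA1 line gave 1 and WX-02-23 in the C258A-FOXA1 line -2. Near PHF5A at that q-value WX-02-23 against WX-02-43 gave 0.33, and WX-02-23 and Dox in the WT-FOXA1 line both gave 0. With lists of equal length, the PladB doses near SF3B1 differed by 0.33, WX-02-23 and Dox near SF3B1 in the WT-FOXA1 line gave 0.5 each, and WX-02-23 near PHF5A there gave 0.5, as it did with regions from the compared libraries alone.

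Gained members over the 12 comparisons numbered 3 and lost members 2. These became 14 and 16 when 1 library could lack or hold a peak, 5 and 5 with 50% coverage, lost became 4 at a q-value of 1e-05 or below, and lost became 1 with lists of equal length. That 1 was a different call, since neither of the 2 lost members kept its call with lists of equal length. Of the 3 gained members, the one 41.4 kb beyond the end of PHF5A alone kept its call with such lists. The engineered-only region inside PHF5A kept its count of regions and of libraries at a q-value of 1e-05 or below and with summit windows of 100 bp. The stricter q-value could not change these counts, since the 12 peaks had −log10 q-values of 8.66 to 22.3. The summit windows could not change them either. The 12 summits lay 1175 to 1214 bp into the gene, so their windows overlap, and no parental library had a peak there. No stability is read from either setting. Of 96 alternatives for promoter width 81 kept their sign. The 81 include the replicate block values, which could not change. Merging all peaks of a library at the SF3B1 promoter turned the width differences to -1 bp for WX-02-23, 21.7 bp for 10 nM PladB and 17.7 bp for 100 nM PladB against DMSO, -54 bp for WX-02-23 against WX-02-43 and -4 bp between PladB doses.

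Leaving out 1 library at a time reversed these differences, given as ranges. Near SF3B1 the number of regions ran from -1 to 0.5 for 10 nM PladB (positive without PladB replicate 2 or DMSO replicate 2), from -1.5 to 0.5 for PladB in the WT-FOXA1 line (DMSO replicate 2), from -1.5 to 0.5 for PladB in the C258A-FOXA1 line (PladB replicate 1) and from -0.5 to 1.5 between these lines (WT-FOXA1 replicate 1). Near PHF5A it ran from -1.33 to 0.167 for 100 nM PladB (DMSO replicate 3). SF3B1 promoter width ran from -24.8 to 108.7 bp for WX-02-23, -69.7 to 163.3 bp for WX-02-43 and -84.8 to 48.7 bp for 100 nM PladB against DMSO, and from -114.3 to 118.7 bp between the stereoprobes. PHF5A promoter width ran from -86.2 to 8.83 bp for 10 nM PladB against DMSO and from -107.8 to 16.2 bp between the PladB doses.

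Replicate numbers did not pair the parental libraries, whose same-number correlations ran from -0.033 to 0.0303. With the replicate number as a block (replicate block) the differences were the same by arithmetic and could not change. An example is 1 region for WX-02-23 against DMSO near SF3B1, with an exact permutation p of 0.5. The p-value can change, since signs of same-number differences are exchanged. For 100 nM PladB against DMSO near SF3B1 the exact permutation p went from 0.5 to 0.25. No difference was called with or without it. The leave-one-out and block alternatives of promoter width were chosen after seeing the data.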
